A study of Homo sapiens with 4 samples.

Results

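The extracellular matrix is the network of secreted proteins around cells, and 42 genes that build it, process its proteins or remodel it were followed here among the 25192 genes listed in every library. The members were chosen by symbol, with earlier results of these data known. They comprise 10 collagens, 6 laminin chains, 10 other glycoproteins and proteoglycans, 10 proteases, protease inhibitors and a protease receptor, and 6 enzymes or chaperones of collagen folding and modification. Of these, 41 passed the filter on low counts, and only MMP1 did not.

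RNA was sequenced from A549 cells, a human lung adenocarcinoma line, 48 h after infection with 1 of 2 retroviruses. The control empty virus (EV, 2 libraries) expressed green fluorescent protein alone, and the FCN3 virus (2 libraries) expressed full-length FCN3, a secreted lectin of innate immunity, with a V5 tag ahead of the same fluorescent protein. The viral promoter drives FCN3 far above its native level, a single cell line was used, and the labels give each library only a replicate number without saying what libraries of one number shared. The question behind the comparison was which transcripts change when lung cancer cells produce FCN3.

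Expected counts, the read counts that RSEM divides among genes, summed to between 16353554 and 35733735 per library, with replicate 1 the deeper one in both groups. FCN3 had counts of 1 and 0 in EV cells and 722388 and 448352 in FCN3 cells, and the endoplasmic reticulum chaperone gene HSPA5 and the stress factor gene DDIT3 rose (log2 fold changes 3.19 and 4.36). Of 5 epithelial markers, KRT8 and KRT18 were abundant and EPCAM was low (1.09 to 3.65 TPM). With the FCN3 virus 3 of the 5 were called higher by paired edgeR, among them KRT8 and KRT18 (log2 fold changes 0.26 and 0.31). The other 2 were called lower, with EPCAM at the low end of the 5 log2 fold changes, which ran from -1.13 to 1.27. Of all tested genes, 19.1% were called higher and 17.1% lower. The KRT8 and KRT18 groups overlapped, and edgeR without pairing called none of the 5. DESeq2 with pairing called neither of the lower markers. Among markers of other cells, the 7 fibroblast genes summed to 11.3 and 12.2 TPM in EV cells and 6.89 and 6.66 TPM in FCN3 cells, with 6 of the 7 under 1 TPM in every library and DCN at 0. The 4 leukocyte genes summed to 33.9 and 35.7 TPM against 61.9 and 49.8 TPM, nearly all of it CD68, while CD3E was at 0, and the 4 endothelial genes stayed at or below 0.08 TPM. Whether these marker levels have a part in any matrix result was not tested, and in bulk RNA fewer cells of a kind and less RNA per cell cannot be told apart.

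Collagens are triple helices of 3 chains that are hydroxylated and folded in the endoplasmic reticulum before export. Type IV collagen and the laminins, cross-shaped trimers of an alpha, a beta and a gamma chain, form the 2 sheets of the basement membrane, which nidogen and perlecan join. Metalloproteinases and the urokinase system cut the matrix, and TIMPs and serpins restrain them. Epithelial cells make much of the basement membrane that they rest on.

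Stretches of promoter sequence show where the members described most fully begin. COL4A1 and COL4A2, which encode the chains of the commonest type IV collagen, are transcribed away from each other, and their RefSeq start sites on chromosome 13 (GRCh38.p14) lie 127 bases apart. The first stretch is the whole 126 bases between them, chr13:110307158-110307283, on the strand of COL4A2. The others end at the base before the start of CRTAC1 (chr10:98030622-98030741, minus strand) and of SMOC1 (chr14:69879276-69879415, plus strand), the members with the largest decreases, and span a part of the LAMB3 promoter (chr1:209651415-209651461, minus strand), the laminin chain with the larger increase. Capitals mark CCAAT or its reverse complement ATTGG in the first 3 and an AP-1 element, TGANTCA, in the last.
COL4A1 and COL4A2, between the starts: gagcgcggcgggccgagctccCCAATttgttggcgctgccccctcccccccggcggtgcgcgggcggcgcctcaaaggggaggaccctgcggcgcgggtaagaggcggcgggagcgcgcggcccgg
CRTAC1, bases -120 to -1: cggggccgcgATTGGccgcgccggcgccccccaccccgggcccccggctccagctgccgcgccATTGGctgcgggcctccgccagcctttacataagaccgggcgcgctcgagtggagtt
SMOC1, bases -140 to -1: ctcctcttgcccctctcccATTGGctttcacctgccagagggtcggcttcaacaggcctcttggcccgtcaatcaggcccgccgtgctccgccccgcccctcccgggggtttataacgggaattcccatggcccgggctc
LAMB3, bases -87 to -41: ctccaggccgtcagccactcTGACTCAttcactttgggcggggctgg

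Levels were compared between genes per transcript length, in TPM, the transcripts of a gene scaled to a fixed total per library. TGFBI, which encodes a secreted protein that binds collagens and integrins, was by far the most abundant member at 1068 and 1227 TPM in EV cells and 1091 and 1128 TPM in FCN3 cells, and made up 30.4 to 32.1% of the members' summed TPM. It was followed by TIMP1 (225 TPM as the mean of all 4 libraries), LOXL2 (195 TPM), SERPINE2 (194 TPM), TIMP2 (173 TPM), PLAU (166 TPM) and PLOD2 (162 TPM). From TIMP1 to PLOD2, the range of each over the libraries overlapped that of the next. In all, 11 members averaged at least 100 TPM, 18 between 10 and 100 TPM, 9 between 1 and 10 TPM and 4 less than 1 TPM. The lowest was MMP1, the interstitial collagenase, with counts of 1, 0, 4 and 1, at or near the floor of 3 counts, so no fold is given.

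**Figure D1:**
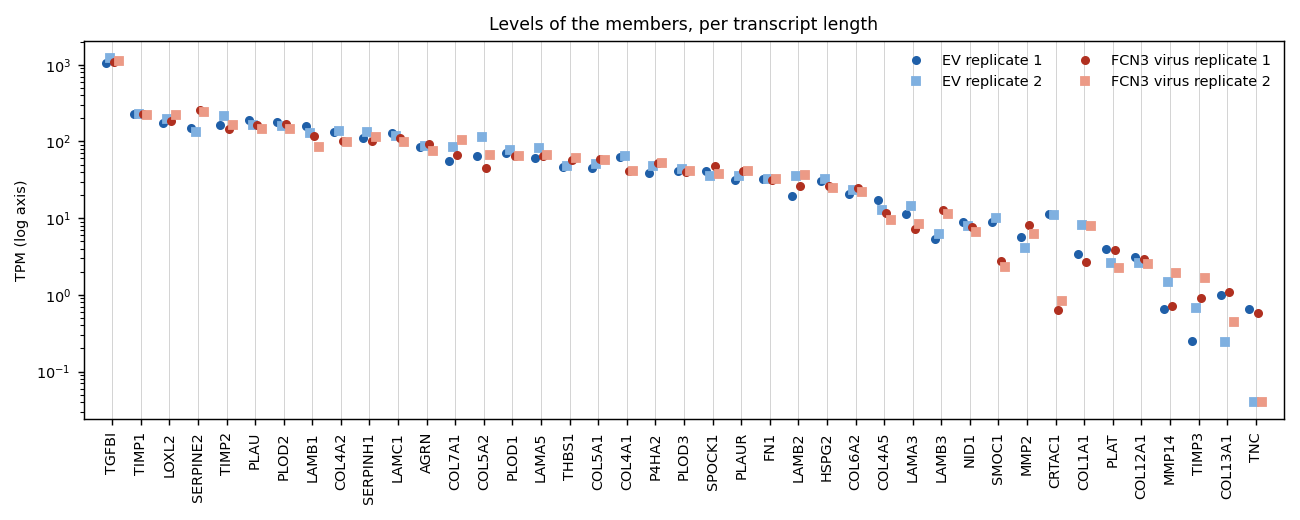
Level of each of the 41 tested members in each library, in TPM on a log axis, ordered by the mean of the 4 libraries, with circles for replicate 1 and squares for replicate 2. TGFBI, at 1128 TPM on average, stands apart at the top, CRTAC1 and SMOC1 separate by virus, and TNC, COL13A1 and COL1A1 separate by replicate number.

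The members together took 0.351 and 0.382% of all TPM in EV cells and 0.351 and 0.355% in FCN3 cells. Summed, they stood at 3666 ± 217 TPM in EV cells and 3527 ± 27.9 TPM in FCN3 cells (mean ± SD, n = 2 in each group). FCN3 itself took 4.16 and 4.47% of TPM in its libraries, which lowers the TPM of every other gene there. With TPM rescaled without FCN3, the sums were 3666 ± 217 and 3686 ± 37.6 TPM, so that the difference of -139 TPM became 20.1 TPM. Both differences were smaller than the spread between the EV libraries.

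Differences between the viruses were therefore read from TMM-normalized CPM, the counts scaled to a common library size, with libraries paired by replicate number, in edgeR's quasi-likelihood test over all 14099 tested genes. At an adjusted p under 0.01, 22 of the 41 members were called, 12 higher and 10 lower with the FCN3 virus. This share, 53.7%, stands beside 36.2% of all tested genes called in the same fit (19.1% higher and 17.1% lower). The list was chosen with earlier results known and no allowance was made for expression level, so the 2 shares do not test it. A change of at least 1.5-fold together with a call was reached by 7 members, beside 12.3% of all genes. The median log2 fold change was 0.02 over the members and 0.01 over all tested genes, and the median size of the change regardless of sign was 0.26 and 0.22. Increases and decreases were thus close in number. Counts of calls by class, given below, stand beside the same 19.1% higher and 17.1% lower of all tested genes.

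How many were called depended on the pairing. When the block was left out, edgeR called 2 members, CRTAC1 and SMOC1, both lower, and 0.965% of all genes. At an unadjusted p under 0.05 that fit had 8 members higher and 5 lower, beside 13.6% and 11.6% of all genes. DESeq2 with the block called 8 members higher and 8 lower, beside 8.1% and 8.08% of all genes (16.2% together), and all 16 were among the 22. DESeq2 unpaired called 3 higher and 4 lower, beside 4.43% and 3.43% of all genes (7.86% together). With limma on log2(TPM + 1) 9 members were called higher and 12 lower, beside 10.2% and 22.3% of all genes, so that 42.9% of calls were higher against 54.5% on the count scale. All 22 called members differed in the same direction in both pairs of libraries. Selection by a paired fit of 2 pairs all but requires this, so it adds no support. The groups were apart in 21 of the 41 members, with the FCN3 libraries on top in 12 and at the bottom in 9, beside 54.5% of all genes without overlap in either direction.

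**Figure D2:**
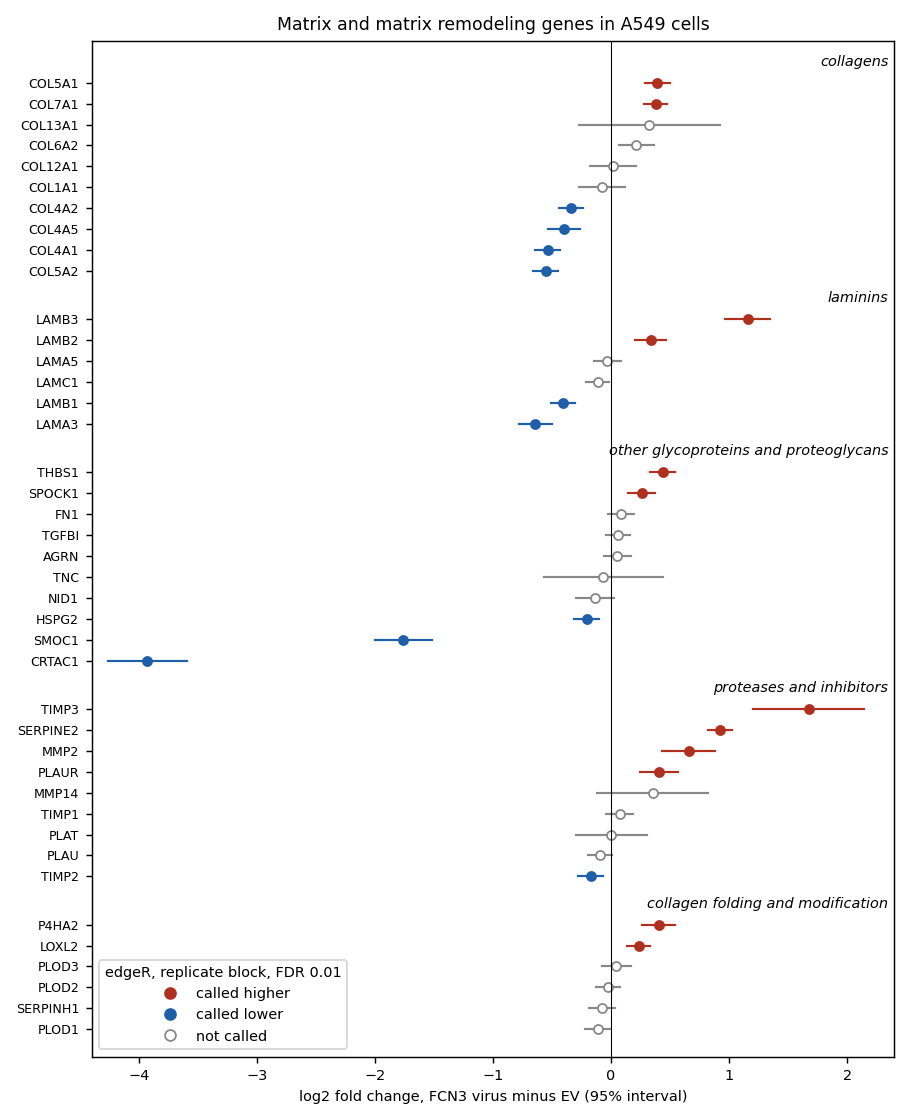
Log2 fold change of the 41 tested members, FCN3 virus minus EV, with 95% intervals from edgeR's quasi-likelihood fit with the replicate block, grouped by role. CRTAC1 at -3.93 and SMOC1 at -1.76 lie farthest to the left, TIMP3 at 1.67 and LAMB3 at 1.16 farthest to the right, and of the others only SERPINE2, at 0.92, lies beyond the 0.66 of MMP2.

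Among the 10 collagens, the 3 type IV chains of the list fell, and the chains of other types moved both ways: 2 were called higher, 4 lower and 4 were not called (median log2 fold change -0.03). COL4A1 was at 221 and 226 CPM in the EV libraries and at 156 and 151 CPM in the FCN3 libraries (log2 fold change -0.54, SE 0.05, adjusted p = 1.0e-12). COL4A2, which shares the promoter stretch printed above, was at 443 and 458 CPM in the EV libraries and at 367 and 345 CPM in the FCN3 libraries (log2 fold change -0.34, SE 0.05, adjusted p = 1.1e-07). In both genes the EV libraries lay above the FCN3 libraries without overlap, and libraries of one group differed little. In the GENCODE annotation of GRCh37 (hg19, to which the reads were aligned), COL4A1 spans bases 110801310 to 110959504 of chromosome 13 (minus strand). COL4A2 spans bases 110958159 to 111165556 (plus strand), so these gene spans overlap by 1346 bases. The reads were counted on RefSeq transcripts, and the RefSeq starts given above lie 127 bases apart without overlap. Whether any counted transcripts of COL4A1 and COL4A2 overlap was not examined. The strand setting of the counting is not stated in the sources used here.

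COL4A5, a chain of the type IV collagens of kidney and epithelial basement membranes, was at 60.5 and 44.9 CPM in the EV libraries and at 44.4 and 35.4 CPM in the FCN3 libraries (log2 fold change -0.40, SE 0.07, adjusted p = 2.4e-06). Replicate 1 was the higher library in both groups, and the groups did not overlap. Type V collagen, which controls the width of collagen fibrils, split by chain. COL5A1 rose, at 200.3 and 232 CPM in EV cells and 288 and 277 CPM in FCN3 cells (log2 fold change 0.39, SE 0.05, adjusted p = 2.2e-08). COL5A2 fell, at 239 and 426 CPM in EV cells and 179 and 262 CPM in FCN3 cells (log2 fold change -0.56, SE 0.05, adjusted p = 1.2e-12), and here the groups overlapped, since FCN3 replicate 2 was above EV replicate 1. Within pairs COL5A2 was lower both times, with log2 differences of -0.41 between the libraries numbered 1 and -0.70 between those numbered 2. COL7A1, the collagen of the anchoring fibrils under epithelia, rose within both pairs although its groups overlapped, at 269.7 and 424 CPM in EV cells and 354 and 545 CPM in FCN3 cells (log2 fold change 0.38, SE 0.05, adjusted p = 5.3e-09). Leaving out 1 library at a time from the unpaired fit moved the log2 fold changes of COL4A5, COL5A2 and COL7A1 by over 1.5 times from the paired values. COL4A5 ranged from -0.60 without EV replicate 2 to -0.15 without EV replicate 1, COL5A2 from -0.94 without EV replicate 1 to -0.12 without EV replicate 2, and COL7A1 from 0.03 without FCN3 replicate 2 to 0.73 without EV replicate 2.

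The other 4 collagens were not called. COL6A2, a chain of the beaded filaments of type VI collagen, was at 35.8 and 40.6 CPM in the EV libraries and at 46.7 and 41.1 CPM in the FCN3 libraries (log2 fold change 0.21, SE 0.07, adjusted p = 0.015) and its adjusted p was under 0.01 in 4 of the alternative fits. COL12A1, a collagen bound to fibril surfaces, was at 18.2 and 14.7 CPM in EV cells and 18.6 and 14.7 CPM in FCN3 cells (log2 fold change 0.02, SE 0.10, adjusted p = 0.90). COL1A1, the main chain of type I collagen, was at 10.6 and 25.7 CPM in EV cells and 9.23 and 26.4 CPM in FCN3 cells (log2 fold change -0.08, SE 0.10, adjusted p = 0.54). The COL1A1 values separate by replicate number and not by virus. COL13A1, a collagen that spans the cell membrane, was at 1.51 and 0.358 CPM in EV cells and 1.74 and 0.704 CPM in FCN3 cells (log2 fold change 0.32, SE 0.30, adjusted p = 0.39), with counts of 55 and 6 in EV cells and 59 and 14 in FCN3 cells, and its 95% interval of -0.27 to 0.92 covers changes of either sign. In the type IV chains and COL7A1, by contrast, the SE was at most 0.07.

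The 6 laminin chains divided as well, with 2 called higher, 2 lower and 2 not called (median log2 fold change -0.07). LAMB3, the beta chain of the laminin that anchors epithelial cells through hemidesmosomes, rose 2.23-fold and was at 11.8 and 13.6 CPM in the EV libraries and at 29.7 and 26.0 CPM in the FCN3 libraries (log2 fold change 1.16, SE 0.10, adjusted p = 4.2e-15). LAMA3, the alpha chain of the same trimer, fell 1.56-fold and was at 49.1 and 60.2 CPM in the EV libraries and at 33.0 and 36.6 CPM in the FCN3 libraries (log2 fold change -0.64, SE 0.07, adjusted p = 2.4e-11). The groups did not overlap in either gene. The beta chain of the trimer thus rose and the alpha chain fell. LAMB3 occupies bases 209788215 to 209825770 of chromosome 1 (minus strand) and LAMA3 bases 21269417 to 21536186 of chromosome 18 (plus strand, GRCh37).

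LAMB1, the beta chain shared by many basement membrane laminins, was at 489 and 401 CPM in the EV libraries and at 393 and 284 CPM in the FCN3 libraries (log2 fold change -0.41, SE 0.05, adjusted p = 1.8e-09). The groups did not overlap, and in each the first replicate was the higher. Its unpaired log2 fold change ranged from -0.65 without FCN3 replicate 1 to -0.18 without FCN3 replicate 2. LAMB2, the alternative beta chain, was at 60.0 and 112 CPM in EV cells and 87.7 and 121 CPM in FCN3 cells (log2 fold change 0.33, SE 0.06, adjusted p = 2.3e-05). Its groups overlapped, DESeq2 with the block did not call it (adjusted p = 0.018), and its unpaired log2 fold change was -0.09 without EV replicate 1, 0.04 without FCN3 replicate 2 and 0.79 without EV replicate 2. LAMC1, the gamma chain that pairs with both, was not called at 538 and 494 CPM in EV cells and 506 and 447 CPM in FCN3 cells (log2 fold change -0.11, SE 0.05, adjusted p = 0.047), but was called lower with limma on log2(TPM + 1) (adjusted p = 0.0042). LAMA5, the alpha chain of adult epithelial basement membranes and per length the most abundant after LAMB1 and LAMC1, was at 377 and 517 CPM in EV cells and 429 and 434 CPM in FCN3 cells (log2 fold change -0.03, SE 0.06, adjusted p = 0.69). EV replicate 2 was the highest of the LAMA5 libraries and the other EV library the lowest.

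Of the 10 other glycoproteins and proteoglycans, 2 were called higher, 3 lower and 5 not (median log2 fold change -0.01), and 2 of the decreases were the largest of all members. CRTAC1, a secreted glycoprotein first known from cartilage, was at 16.3 and 16.3 CPM in the EV libraries and at 0.914 and 1.31 CPM in the FCN3 libraries, which is 15.2-fold lower (log2 fold change -3.93, SE 0.17, adjusted p = 2.2e-26, 95% interval of the log2 fold change -4.26 to -3.59). Its counts were 593 and 273 in EV cells and 31 and 26 in FCN3 cells. EV libraries were nearly equal and FCN3 libraries far below them, and the gene was called in every setting tried, including edgeR without the block (adjusted p = 0.0026). CRTAC1 occupies bases 99624757 to 99790585 of chromosome 10 (GRCh37, minus strand), where its last 6581 bases overlap GOLGA7B on the other strand.

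SMOC1, a calcium-binding protein of basement membranes, was at 17.4 and 19.5 CPM in the EV libraries and at 5.81 and 4.78 CPM in the FCN3 libraries, which is 3.39-fold lower (log2 fold change -1.76, SE 0.12, adjusted p = 4.4e-18), from counts of 633 and 326 in EV cells and 197 and 95 in FCN3 cells. The groups did not overlap. Without the block its adjusted p was 0.0091, and leaving out FCN3 replicate 1 or 2 from that fit gave 0.016 and 0.013, outside the threshold. It occupies bases 70320848 to 70499083 of chromosome 14 (plus strand, GRCh37). HSPG2, which encodes perlecan, the heparan sulfate proteoglycan of basement membranes, fell slightly, at 233 and 252 CPM in EV cells and 217 and 203 CPM in FCN3 cells (log2 fold change -0.21, SE 0.05, adjusted p = 0.0011), and was not called by DESeq2 with the block (adjusted p = 0.026).

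**Figure D3:**
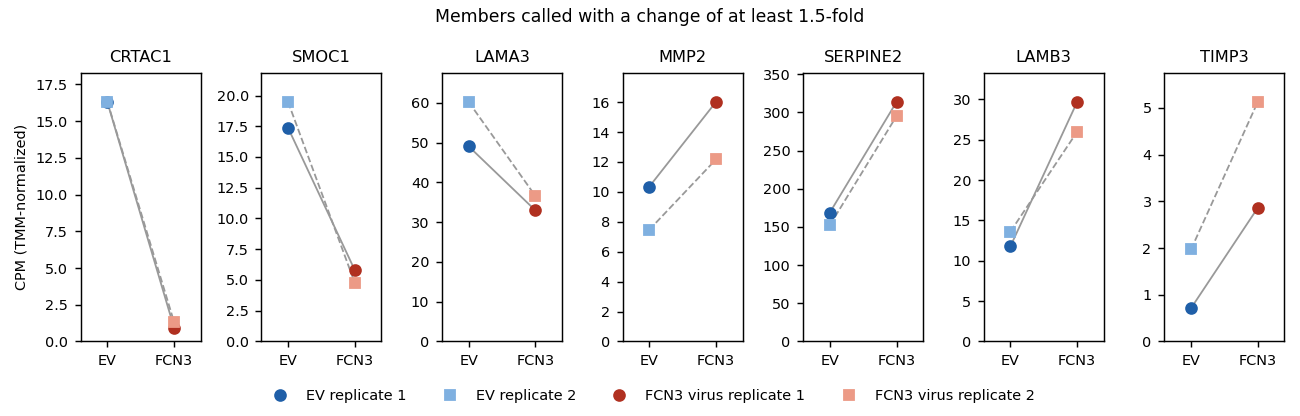
TMM-normalized CPM of the 7 members called with a change of at least 1.5-fold, 1 panel per gene with its own axis from 0, where a line joins the EV and FCN3 libraries of one replicate number (circles and solid lines for 1, squares and dashed lines for 2). Both lines run the same way in every panel, which a call in the paired fit all but requires, down for CRTAC1, SMOC1 and LAMA3 and up for MMP2, SERPINE2, LAMB3 and TIMP3.

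THBS1, thrombospondin, which activates TGF-beta and modulates adhesion, rose from 144 ± 2.86 CPM to 195 ± 6.60 CPM (mean ± SD, n = 2 in each group, log2 fold change 0.44, SE 0.05, adjusted p = 6.4e-10), and its FCN3 libraries lay above both EV libraries. SPOCK1, the proteoglycan testican, was at 105 and 91.5 CPM in EV cells and 132 and 104 CPM in FCN3 cells (log2 fold change 0.26, SE 0.06, adjusted p = 1.4e-04). The SPOCK1 groups overlapped slightly, and DESeq2 with the block did not call it (adjusted p = 0.028). Its unpaired log2 fold change ranged from 0.08 without FCN3 replicate 1 to 0.43 without FCN3 replicate 2. TGFBI, the most abundant member, was not called, at 1535 and 1780.4 CPM in EV cells and 1706 and 1735 CPM in FCN3 cells (log2 fold change 0.06, SE 0.05, adjusted p = 0.36, 95% interval -0.04 to 0.16).
FN1, which encodes fibronectin, the ligand of many integrins, was at 145 and 148 CPM in EV cells and 156 and 155 CPM in FCN3 cells (log2 fold change 0.08, SE 0.05, adjusted p = 0.20). AGRN, which encodes agrin, another heparan sulfate proteoglycan, was at 330.2 and 346 CPM in EV cells and 390.5 and 314 CPM in FCN3 cells (log2 fold change 0.05, SE 0.06, adjusted p = 0.45). The FCN3 libraries of AGRN were the highest and the lowest of the 4. NID1, the nidogen that bridges laminin and type IV collagen, was at 27.7 and 25.2 CPM in EV cells and 26.1 and 21.9 CPM in FCN3 cells (log2 fold change -0.14, SE 0.08, adjusted p = 0.17). TNC, which encodes tenascin-C, a protein of remodeling tissue, had counts of 111 and 3 in EV cells and 98 and 4 in FCN3 cells (log2 fold change -0.07, SE 0.25, adjusted p = 0.85). TNC was present in both libraries numbered 1 and near the floor of 3 counts in both numbered 2, whatever the virus.

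Of the 9 tested proteases and inhibitors, 4 were called higher, 1 lower and 4 not called, and paired DESeq2 called 2 higher and 0 lower. The class median, a log2 fold change of 0.35, was the farthest from 0. It is the value of MMP14 alone (SE 0.23), which was not called. The members next to MMP14 in order were TIMP1 at 0.07 and PLAUR at 0.41. TIMP3, an inhibitor of metalloproteinases that stays bound to the matrix, rose 3.19-fold and was at 0.713 and 1.97 CPM in the EV libraries and at 2.86 and 5.13 CPM in the FCN3 libraries (log2 fold change 1.67, SE 0.23, adjusted p = 3.3e-08). It is a minor transcript here, with counts of 26 and 33 in EV cells and 97 and 102 in FCN3 cells, and all 61338 bases of its locus lie inside SYN3, which is transcribed from the other strand. Replicate 2 was the higher library in both groups, without the block the adjusted p was 0.12, and the unpaired log2 fold change was 0.95 without EV replicate 1. TIMP2, which takes part in the activation of MMP2, fell, at 312 and 416 CPM in EV cells and 303 and 337 CPM in FCN3 cells (log2 fold change -0.17, SE 0.05, adjusted p = 0.0059). The TIMP2 groups overlapped, and its unpaired log2 fold change was 0.03 without EV replicate 2 and -0.37 without EV replicate 1. TIMP1, per length the most abundant inhibitor in EV cells and below SERPINE2 in FCN3 cells, was not called, at 93.4 and 92.8 CPM in EV cells and 99.9 and 96.1 CPM in FCN3 cells (log2 fold change 0.07, SE 0.06, adjusted p = 0.29).

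SERPINE2, protease nexin-1, an inhibitor of thrombin, urokinase and plasmin, had the narrowest interval of the larger increases. It was at 169 and 152 CPM in the EV libraries and at 314 and 295 CPM in the FCN3 libraries, 1.90-fold higher (log2 fold change 0.92, SE 0.05, adjusted p = 1.4e-21, 95% interval 0.82 to 1.03). Both pairs gave nearly the same difference, 0.89 between the libraries numbered 1 and 0.95 between those numbered 2, and without the block the adjusted p was 0.010, just above the threshold. PLAUR, the urokinase receptor, rose less, at 23.3 and 26.9 CPM in EV cells and 33.5 and 32.5 CPM in FCN3 cells (log2 fold change 0.41, SE 0.08, adjusted p = 2.8e-05), and DESeq2 with the block did not call it (adjusted p = 0.039). The ligand, urokinase itself (PLAU), was not called, at 232 and 198 CPM in EV cells and 214 and 189 CPM in FCN3 cells (log2 fold change -0.09, SE 0.05, adjusted p = 0.14), but was called lower with limma on log2(TPM + 1) (adjusted p = 0.0079). Tissue plasminogen activator (PLAT) was at 6.56 and 4.36 CPM in EV cells and 6.87 and 3.97 CPM in FCN3 cells (log2 fold change 0.00, SE 0.15, adjusted p = 0.99), with an interval of -0.30 to 0.31.

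MMP2, the gelatinase that degrades type IV collagen, rose 1.58-fold and was at 10.3 and 7.47 CPM in the EV libraries and at 16.0 and 12.2 CPM in the FCN3 libraries (log2 fold change 0.66, SE 0.11, adjusted p = 2.4e-06). The 2 groups did not overlap, replicate 1 was the higher in both, and DESeq2 with the block gave an adjusted p of 0.018. Its unpaired log2 fold change without FCN3 replicate 1 was 0.43. MMP14, the membrane-bound protease that activates MMP2, was at 1.21 and 2.75 CPM in EV cells and 1.42 and 3.77 CPM in FCN3 cells (log2 fold change 0.35, SE 0.23, adjusted p = 0.22), from counts of 44 and 46 in EV cells and 48 and 75 in FCN3 cells, with a 95% interval of -0.12 to 0.82.

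Of the 6 collagen folding and modification genes, P4HA2 and LOXL2 were called higher and none lower (median log2 fold change 0.01). P4HA2, a catalytic subunit of the prolyl 4-hydroxylase that stabilizes the collagen helix, was at 41.1 and 51.3 CPM in the EV libraries and at 60.6 and 60.0 CPM in the FCN3 libraries (log2 fold change 0.40, SE 0.07, adjusted p = 2.6e-06), with the groups apart and an unpaired log2 fold change of 0.24 without EV replicate 1. LOXL2, an oxidase that crosslinks collagen outside the cell, was at 348 and 396 CPM in EV cells and 404 and 470.0 CPM in FCN3 cells (log2 fold change 0.23, SE 0.05, adjusted p = 8.4e-05), also without overlap, but was not called with limma on log2(TPM + 1) (adjusted p = 0.050). Its unpaired log2 fold change was 0.15 without EV replicate 1 and 0.12 without FCN3 replicate 2. SERPINH1, the chaperone HSP47 that binds procollagen in the endoplasmic reticulum, was at 129 and 155 CPM in EV cells and 128 and 140.0 CPM in FCN3 cells (log2 fold change -0.08, SE 0.05, adjusted p = 0.25, 95% interval -0.19 to 0.03). The SERPINH1 groups overlapped.
The lysyl hydroxylases PLOD1, PLOD2 and PLOD3, which prepare collagen for crosslinking, were not called. PLOD1 was at 110.3 and 124 CPM in EV cells and 109 and 107 CPM in FCN3 cells (log2 fold change -0.11, SE 0.06, adjusted p = 0.10), PLOD2, the most abundant of them, at 376 and 344 CPM in EV cells and 384 and 325 CPM in FCN3 cells (log2 fold change -0.03, SE 0.05, adjusted p = 0.70) and PLOD3 at 62.9 and 67.0 CPM in EV cells and 66.6 and 67.0 CPM in FCN3 cells (log2 fold change 0.04, SE 0.06, adjusted p = 0.60). Their 95% intervals ran from -0.23 at the lowest to 0.17 at the highest.

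The members also differed between the replicate numbers, by a median of 0.19 on the log2 scale regardless of sign beside 0.26 between the viruses. In the same fit, 21 of the 41 members differed between replicates 2 and 1 at an adjusted p under 0.01, 11 higher in replicate 2 and 10 lower, beside 22.2% of all tested genes. The difference by replicate number exceeded that by virus in 20 members, beside 42% of all genes, and 5 of the 20 were also called by virus (COL5A2, COL7A1, LAMB2, SPOCK1 and TIMP2). Calls fell on both contrasts in 11 members, on replicate number alone in 10 and on neither in 9, beside 10.2%, 12% and 51.8% of all genes. TNC was the most uneven (log2 difference, replicate 2 minus replicate 1, -3.92, SE 0.40, adjusted p = 3.2e-11), although it rests on few counts in replicate 2. Among the collagens COL1A1 was higher in replicate 2 (1.40, SE 0.10, adjusted p = 6.0e-17) and COL13A1 lower (-1.58, SE 0.36, adjusted p = 4.4e-04). MMP14 was higher in replicate 2 (1.31, SE 0.23, adjusted p = 1.4e-05), as was TIMP3 (1.01, SE 0.22, adjusted p = 3.2e-04). What set the replicate numbers apart is not given in the sources used here.

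**Figure D4:**
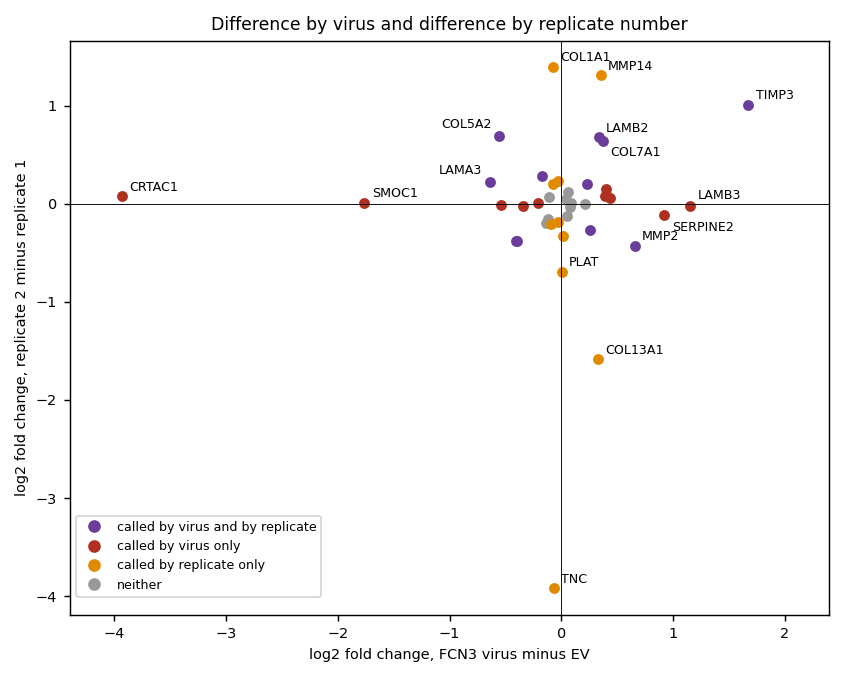
Each of the 41 tested members by its log2 fold change between viruses (horizontal axis, FCN3 virus minus EV) and between replicate numbers (vertical axis, replicate 2 minus replicate 1), coloured by which of the 2 differences was called at an adjusted p under 0.01. CRTAC1 and SMOC1 lie along the horizontal axis, TNC, COL13A1, COL1A1 and MMP14 along the vertical one, and TIMP3 is away from both.

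The rest of the matrix gene repertoire was read from lists of 203 further genes, of which 153 passed the filter. In the paired fit 57 were called higher and 32 lower (58.2% of those tested, beside 36.2% of all genes), with a median log2 fold change of 0.15 over the 153. These lists too were chosen with earlier results known, so the shares do not test them. Unpaired, edgeR called 3, the export and folding genes P4HB, PPIB and SEC24D, all higher, beside 0.965% of all genes. At an unadjusted p under 0.05 that fit had 38 higher and 18 lower, beside 13.6% and 11.6% of all genes. DESeq2 with the block called 28 higher and 18 lower, beside 8.1% and 8.08% of all genes. With limma on log2(TPM + 1) 32 were higher and 34 lower, beside 10.2% and 22.3% of all genes. The share of higher calls was thus 48.5% there and 64.0% on the count scale, and calls over all genes also moved toward lower on the TPM scale.

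Folding, modification and export of collagen had 15 of 33 genes called higher and 5 lower (median log2 fold change 0.27), beside 19.1% and 17.1% of all genes. By DESeq2 with the block, 11 were higher and 3 lower, beside 8.1% and 8.08% of all genes. SEC24D, a coat protein of the vesicles that carry procollagen out of the endoplasmic reticulum, was at 31.5 and 26.6 CPM in EV cells and 131 and 114 CPM in FCN3 cells (log2 fold change 2.08, SE 0.06, adjusted p = 6.1e-33). P4HB, protein disulfide isomerase and the second subunit of prolyl 4-hydroxylase, was at 769 and 755 CPM in EV cells and 2095 and 1806 CPM in FCN3 cells (log2 fold change 1.35, SE 0.05, adjusted p = 8.2e-29). PPIB, the cyclophilin that turns prolines during helix folding, was at 398 and 447 CPM in EV cells and 1165 and 1223 CPM in FCN3 cells, 2.83-fold higher (adjusted p = 2.8e-31). GLT25D2, a collagen galactosyltransferase, had the largest log2 fold change of the list (2.34), from counts of 6 and 4 in EV cells and 30 and 23 in FCN3 cells. LEPREL1 and P4HA3, both prolyl hydroxylases, fell by 0.54 and 0.48 on the log2 scale.

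Among 10 tested laminin and basement membrane genes outside the members, 6 were called higher and 2 lower (median log2 fold change 0.57). All genes stood at 19.1% and 17.1%. By DESeq2 with the block, 3 of the 10 were higher and 1 lower, beside 8.1% and 8.08% of all genes. HMCN1, which encodes hemicentin, had the largest increase (2.43) but counts of only 5 and 3 in EV cells and 33 and 11 in FCN3 cells. NTN1, a laminin-related guidance protein, rose by 1.32 on the log2 scale. NID2, the second nidogen, fell by 1.23 and LAMA4, an alpha chain of vessels and muscle, by 0.94. In 14 tested collagens the calls were balanced, 3 higher and 3 lower (median -0.04). COL17A1, the collagen of hemidesmosomes, and COL4A3 rose by 0.74 and 0.70, and COL11A1 and COL4A6 fell by 0.42 and 0.38. COL4A6 is a partner of COL4A5, though not its only one, and, like the 3 member chains of type IV, was lower. COL4A4 was not called (log2 fold change 0.18, SE 0.12, adjusted p = 0.23). COL4A3 rose, so in the paired edgeR fit the type IV genes did not all move one way. DESeq2 with the block called 0 of these 14 collagens higher and 1 lower, so it called neither the rise of COL4A3 nor that of COL17A1. COL4A4 was picked after its values were seen.

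Of 37 further glycoproteins and proteoglycans, 10 were higher and 11 lower (median log2 fold change 0.04), beside 19.1% and 17.1% of all genes. Paired DESeq2 called 4 of these higher and 7 lower, beside 8.1% and 8.08% of all genes. TNXB, a tenascin, rose by 2.02 and NOV, a matricellular protein of the CCN family, by 1.35, both from low counts. The fibrinogen chains FGB and FGA fell by 2.27 and 1.92, with FGB at 1.04 and 10.9 CPM in EV cells and 0.501 and 1.66 CPM in FCN3 cells, so that these 2 genes also differed widely between replicate numbers. Of 34 proteases and inhibitors, 13 were higher and 6 lower (median 0.18), and paired DESeq2 called 4 higher and 3 lower. ADAMTS6 rose by 2.73 with counts of 11 and 1 in EV cells and 65 and 13 in FCN3 cells. MMP15, a membrane-bound metalloproteinase, and ADAMTS10 fell by 1.31 and 0.98.

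Matrix receptors, 25 of them tested, were higher in 10 and lower in 5 cases (median log2 fold change 0.08), beside 19.1% and 17.1% of all genes. Paired DESeq2 called 6 of the receptors higher and 3 lower, beside 8.1% and 8.08% of all genes. DDR2, a receptor for fibrillar collagen, had the largest increase (1.68), with counts of 6 and 4 in EV cells and 22 and 11 in FCN3 cells. ITGA3, an integrin chain that binds the laminin of LAMA3 and LAMB3, was at 803 and 758 CPM in EV cells and 1522 and 1327 CPM in FCN3 cells (log2 fold change 0.87, SE 0.05, adjusted p = 3.2e-21). BCAM, a receptor for the LAMA5 chain, was at 77.8 and 175 CPM in EV cells and 21.7 and 38.1 CPM in FCN3 cells (log2 fold change -2.02, SE 0.07, adjusted p = 4.5e-31), lower in both pairs. ITGB5, a chain of a vitronectin receptor, fell by 0.55.

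**Figure D5:**
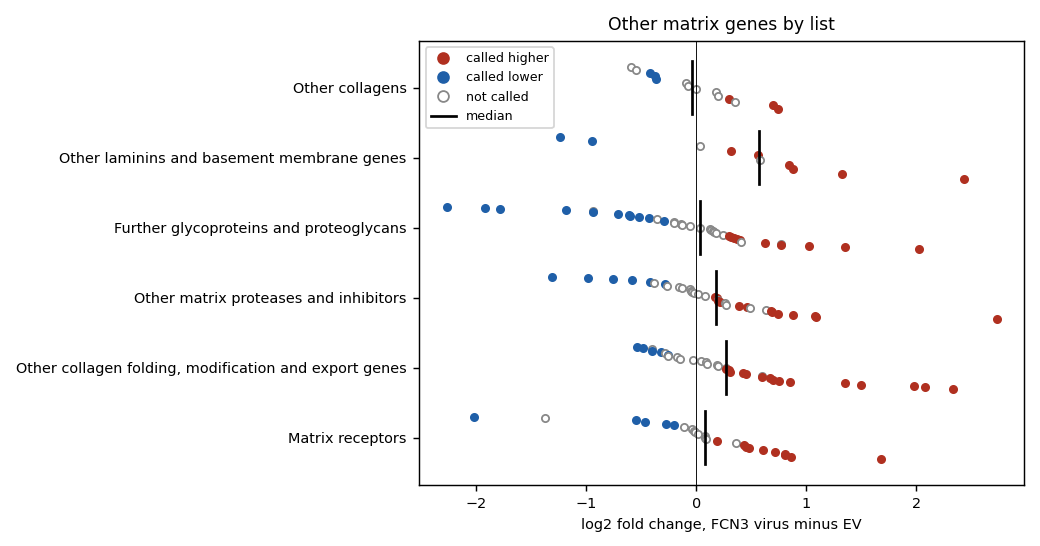
Log2 fold change, FCN3 virus minus EV, of the 153 tested matrix genes outside the members, by list, with the list's median as a black bar and points spread vertically for legibility only. The medians run from -0.04 for the collagens to 0.57 for the laminin and basement membrane genes, and every list holds calls in both directions.

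Promoter windows from 250 bases before to 50 after a start site were given by RefSeq (GRCh38.p14) for 33 of the 42 members. The named sites of the unfolded protein response were searched on both strands. None of the 33 held ERSE or ERSE-II, which occurred in 0.0916 and 0.0696% of all genes with a promoter. None held a C/EBP-ATF element (TGATGNAAT, 1.22% of genes). Sites this rare would seldom occur among 33 genes, so their absence says little about the members. The UPRE core TGACGTGG was found in TIMP1 alone (0.927% of genes), a gene that was not called. An AP-1 element, TGANTCA, was found in LAMA3, LAMB3 and PLAUR, that is 3 of 33 members beside 9.37% of all genes with a promoter. CCAAT, contained in ERSE and, as ATTGG, in ERSE-II, was added after the data had been seen. It was present in 16 of the 33 beside 39.7% of all genes. The 1 match between the starts of COL4A1 and COL4A2 counts for both genes. A match describes these letters in the window and not a bound site.
The AP-1 matches are shown in capitals with flanking bases, since 2 of the 3 genes are chains of 1 laminin and changed in opposite directions, and the TIMP1 match is shown with them. The LAMB3 match is in the stretch printed earlier. LAMA3 has a pair of matches (chr18:23872875-23872921 and chr18:23872931-23872977, plus strand), PLAUR 1 (chr19:43670329-43670375, minus strand) and TIMP1 1 at the edge of its window (chrX:47582186-47582230, plus strand).
LAMA3, bases -145 to -99: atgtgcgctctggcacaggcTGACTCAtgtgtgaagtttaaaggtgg
LAMA3, bases -89 to -43: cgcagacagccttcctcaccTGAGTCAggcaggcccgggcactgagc
PLAUR, bases -206 to -160: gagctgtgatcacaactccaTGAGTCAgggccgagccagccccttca
TIMP1, bases -250 to -206: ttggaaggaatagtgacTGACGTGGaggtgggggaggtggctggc

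RSEM also gives each gene a transcript length, weighted by the use of its isoforms as estimated from the same reads as the counts. It was one value in all 4 libraries for 25 members and varied for 17, of which 6 varied by at least 1% between the lowest and highest library. One of the 6 is MMP1 (7.76%), whose counts of 1, 0, 4 and 1 are too few to read isoform use from. The widest range was that of CRTAC1, 10.6%, with 2787 and 2890 bases in EV cells and 2594 and 2890 bases in FCN3 cells, so both libraries numbered 2 had the highest value. The CRTAC1 lengths in FCN3 cells rest on counts of only 31 and 26. LAMA3 was at 8007 and 7704 bases in EV cells and 7803 and 7587 bases in FCN3 cells, a range of 5.40%, longer with EV in both pairs and longer in replicate 1 in both groups. LAMB3 was shorter in both FCN3 libraries, 4113 and 4111 bases against 4160 and 4141 bases, a range of 1.19%. COL12A1, at 7.24%, was longer in both libraries numbered 1. No test was made of these lengths.

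In the GENCODE annotation the spans of 13 of the 42 members, introns included, overlapped another protein-coding gene, 11 of them one on the opposite strand. Of the members described at length, these include COL4A1, COL4A2, CRTAC1, TIMP3, THBS1, LAMB1, P4HA2 and HSPG2. Whether the overlaps reach exons of the RefSeq transcripts that were counted was not examined, so any effect on the counts of these members is not known. With 2 libraries per group an exact two-sided permutation test of one gene cannot give a p below 0.333, so the models fitted across all genes were the only tests, and nothing in the labels says that the libraries came from separate cultures.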

How the data were processed

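RNA of A549 cells infected with EV (2 libraries) or the FCN3 virus (2 libraries) was made into stranded mRNA libraries and sequenced as paired-end reads. Per the study's methods and the submitters' processing notes, the authors removed adapters and poor reads, mapped the rest to hg19 with STAR 2.6.1d and quantified RefSeq transcripts with RSEM. For each gene the authors deposited an expected count, RSEM's estimate of its reads, unnormalized and often fractional. The deposited TPM values, scaled by RSEM for transcript length and to a fixed library total, were used for levels between genes and summed TPM. The deposited FPKM values were not used. RSEM's mean transcript lengths were read as deposited. The strand setting of the counting is not given in the sources used here.

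After rounding to whole numbers, counts were analysed in R 4.3.3 with edgeR 4.0.16: TMM factors, filterByExpr (14099 of 25192 genes kept), quasi-likelihood fit and test with replicate number as a block, and Benjamini-Hochberg adjustment over all tested genes, with calls at 0.01, the threshold of the study's methods. SE was obtained by dividing the absolute log2 fold change by the root of the F statistic, and 95% intervals use the fit's degrees of freedom. Totals per library ranged from 16353554 to 35733735 counts, and the floor of 3 counts was 0.0840 to 0.183 CPM, for counting error only. The pairing comes from the replicate numbers in the labels. Across 8310 well-expressed genes, the deviations of same-numbered libraries from their group means correlated (r = 0.806, across genes, which are not replicates), but with 2 pairs and no stated shared batch this does not establish pairing, so unpaired counts stand beside the paired ones. DESeq2 1.42.0 and limma 3.58.1 were alternatives, and the scripts were first tested on simulated counts. Promoters were matched by symbol to RefSeq windows of GRCh38.p14, found for 33 members, and gene positions come from the GENCODE annotation of GRCh37. Members were described by role, with values in each library for those called with at least 1.5-fold change, the most abundant of each class and those not called. Of each other list, the called genes with the 2 largest increases and the 2 largest decreases were named, with exceptions stated in the text and some genes of these lists and of the marker list not reported here. The members and lists were chosen with earlier results of these data known.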

Additional observations from a re-analysis of the deposited data

How the results depend on the processing

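The call counts depended most on the replicate number, which the labels give without saying what it stands for. With no replicate block, the pairing left out, 0 members were called higher and 2 lower, in place of 12 and 10, with 3 and 0 of the other matrix genes in place of 57 and 32 and 136 of all genes in place of 5103. DESeq2 with the block called 28 other matrix genes higher and 18 lower, 2212 of all genes and 7 members between replicate numbers in place of 21. DESeq2 without the block called 3 members higher and 4 lower, 17 other matrix genes higher and 6 lower, and 1047 of all genes. An added requirement of a log2 fold change of at least 1 left 2 members higher and 2 lower, 14 other matrix genes higher and 7 lower, 689 of all genes and 5 members between replicate numbers, a smaller set by construction. limma on log2(TPM + 1) and log2(TPM + 0.1) called 32 and 31 other matrix genes higher, and the median of all genes moved from 0.01 to -0.07 and -0.09 on those scales.

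Leaving out 1 library at a time was possible only without the block, since 3 paired libraries leave no residual degree of freedom, and the lone library of a group is then assumed to vary like the others. Members called then ranged from 0 to 1 higher and from 1 to 2 lower, other matrix genes from 3 to 5 higher and from 0 to 2 lower, and all genes 92 without FCN3 replicate 1, 154 without FCN3 replicate 2, 170 without EV replicate 1 and 267 without EV replicate 2. The log2 fold change of LAMB2 reversed to -0.090 without EV replicate 1 and that of TIMP2 to 0.030 without EV replicate 2. No other member that was called changed direction in any setting run. Leaving out 1 library moved the log2 fold change of 11 of the 22 called members by over 1.5 times from the paired value: by any of the 4 libraries for COL5A2, COL7A1 and TIMP2, by all but FCN3 replicate 1 for COL4A5, by all but EV replicate 2 for LAMB1, by all but FCN3 replicate 1 for LAMB2 and by all but EV replicate 1 for SPOCK1, and by 1 or 2 libraries for MMP2, TIMP3, P4HA2 and LOXL2. RLE factors, FCN3 left out before normalization, other count filters, the legacy quasi-likelihood fit, limma-voom and a threshold of 0.05 kept both member counts within 1.5 times of the paired values. With the block, LAMB2, SPOCK1 and LOXL2 were not called by limma on either TPM scale (adjusted p from 0.048 to 0.068), on which LAMC1 and PLAU were called lower (from 0.0042 to 0.0090), nor were HSPG2 and TIMP2 by edgeR with no count filter (adjusted p = 0.012 and 0.039). The cause of these differences was not tested. Few counts limit MMP1, TNC, COL13A1, MMP14 and TIMP3 most.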
